A study of Rattus norvegicus with 8 samples.

Results

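A set of 10 genes of extracellular nucleotide signalling were read from RNA-seq of stretched rat annulus fibrosus cells (AFCs): Enpp1, Enpp3, Entpd1, Nt5e, Panx1, Gja1, P2rx4, P2rx7, P2ry2 and P2ry6. They were taken by symbol from the deposited gene table, which has 31699 rows, and each of the 10 matched 1 row. The genes were chosen from earlier measured values of the same comparison, Lv-Piezo1 against Lv-Ctrl in these 8 samples. Their differences between the groups are therefore given as a description, with no p, and how many of them pass the rule used for all genes is counted below without being read as support. The clearest of them was Enpp3, which went from a mean of 0.383 to 18.6 TPM (a transcript level scaled by transcript length and by the sum of each sample) and was under 0.5 TPM in every Lv-Ctrl sample. Enpp1 was also higher in the samples labelled Lv-Piezo1, whereas Gja1 and Nt5e were lower.

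Cells release ATP through membrane channels, among them pannexin and connexin hemichannels, and stretch is a known trigger of this release. Outside the cell ATP acts on P2X receptors, which are ATP-gated cation channels, and on P2Y receptors, which couple to G proteins. Surface enzymes then break the nucleotides down: ENPP enzymes cut ATP to AMP and pyrophosphate, CD39 removes phosphates from ATP and ADP, and CD73 turns AMP into adenosine. In disc and cartilage the pyrophosphate made by ENPP1 is known as a restraint on mineral deposition.

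The study asked how the mechanosensitive cation channel Piezo1 affects AFCs, the fibroblast-like cells of the outer ring of the intervertebral disc, under cyclic mechanical stretch (CMS). The cells came from Sprague Dawley rats, in isolations that pooled annulus tissue of 8 animals, and were used at passage 3. Both groups received a lentivirus at a multiplicity of infection of 20 for 24 h and then CMS of 20% elongation at 0.5 Hz for 36 h. The 4 Lv-Ctrl samples carried the pLVX-shRNA-Puro vector and the 4 Lv-Piezo1 samples carried pLVX-shRNA-Puro-Piezo1, which expresses 1 short hairpin RNA against Piezo1. No unstretched cells were analysed here, so every value below is from stretched, infected cells. The methods give 4 biological repeats, each with both groups, and the differences below are read against the spread of these 4 samples per group.

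The transcript of the targeted gene went against the label. Piezo1 was at 31.1, 33.0, 26.7 and 29.5 TPM in Lv-Ctrl and at 38.1, 37.7, 40.2 and 41.4 TPM in the samples labelled Lv-Piezo1. The groups did not overlap and the log2 fold change was 0.38 (SE 0.0649, limma adjusted p = 8.6e-04, Benjamini-Hochberg over 13103 genes). The study states that it checked the knockdown and found the hairpin effective, by measurements that were not analysed here. Every direction below refers to the label of the sample. Correlations of log2(TPM + 1) across genes ran from 0.973 to 0.983 within a group and from 0.939 to 0.945 between groups. Of 10 annulus and fibroblast markers, 9 had a mean of at least 1 TPM, Tnmd being at or near 0. Their summed TPM, mostly Col1a1 and Col1a2, was 7298 to 8177 in Lv-Ctrl and 11130 to 11890 in Lv-Piezo1. The list did not move one way, since Thbs4 was called higher and Dcn (decorin) lower, at means of 1456 and 518.8 TPM, and Fmod and Mkx had log2 fold changes of -0.99 and -0.76.

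The start regions of the members that held a motif match are shown first. Upstream sequence was available here for 8 of the 10 members, from RefSeq (build GRCr8), in windows of 250 bases before to 50 after the annotated start. Each window was searched on both strands for the AP-1 motif TGANTCA, for the TEAD motif GGAATG, for the CCAAT box and for TATAAA as the TATA box, and the CArG box was searched by its usual consensus. The 250 bases before the start of Enpp3, Entpd1 and Gja1, the 3 members with any match, are printed 5′ to 3′, with matches in capitals (CCAAT in Enpp3 and Entpd1, TGANTCA in Gja1).

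Enpp3, chr1:22382739-22382988, plus strand: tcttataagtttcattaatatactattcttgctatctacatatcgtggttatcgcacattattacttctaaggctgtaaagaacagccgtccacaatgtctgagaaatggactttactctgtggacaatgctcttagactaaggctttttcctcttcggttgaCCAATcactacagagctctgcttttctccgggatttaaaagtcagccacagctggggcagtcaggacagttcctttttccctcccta

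Entpd1, chr1:249422614-249422863, plus strand: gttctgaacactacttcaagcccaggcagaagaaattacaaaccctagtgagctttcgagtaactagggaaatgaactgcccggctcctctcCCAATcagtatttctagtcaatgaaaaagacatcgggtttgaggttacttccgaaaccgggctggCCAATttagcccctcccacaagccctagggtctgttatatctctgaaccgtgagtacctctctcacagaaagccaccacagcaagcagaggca

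Gja1, chr20:36302314-36302563, plus strand: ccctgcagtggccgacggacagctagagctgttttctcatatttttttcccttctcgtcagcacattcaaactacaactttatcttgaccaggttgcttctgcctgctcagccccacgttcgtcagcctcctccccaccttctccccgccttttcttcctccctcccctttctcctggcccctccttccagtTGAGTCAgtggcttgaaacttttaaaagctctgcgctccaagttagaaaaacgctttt

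Enpp3 has a CCAAT box at -87 from the start and Entpd1 has CCAAT boxes at -158 and -93. In Gja1 the AP-1 match lies at -58, and a reverse CCAAT match lies at 25 after the start, outside the stretch shown. CCAAT was in 3 of 8 member windows and in 37.5% of all 33469 promoter windows, and AP-1 was in 1 of 8 and in 7.33%. No member window held the TEAD, TATA or CArG box letters, which were in 14.2%, 14.2% and 1.64% of all windows. The Enpp3 window was AT-rich, with a GC content of 41.3% against a median of 51.7% over all windows (quartiles 44.7% and 60.3%). At the other end of the set, the windows of P2ry2, Nt5e and P2rx4 had a GC content of 73.0%, 69.3% and 66.7%. These matches describe letters in a window, and binding was not measured.

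Of the 4 ectoenzymes, 3 were higher in Lv-Piezo1 and Nt5e was lower. Enpp3 (ENSRNOG00000013791), a membrane pyrophosphatase known as a surface marker of basophils and mast cells, was at 0.38, 0.41, 0.33 and 0.41 TPM in Lv-Ctrl and at 18.43, 17.88, 19.26 and 18.96 TPM in Lv-Piezo1. All Lv-Piezo1 samples were far above all Lv-Ctrl samples. The means were 0.383 ± 0.0378 and 18.6 ± 0.608 TPM (SD, n = 4 each), a ratio of 48.7, and the log2 fold change on the log2(TPM + 1) scale was 3.83 (SE 0.0628). The 1 added to each TPM understates such a change in a gene with a low control level, and with 0.1 added instead it was 5.28. Since the table holds no read counts, how precisely the low Lv-Ctrl level was measured is unknown beyond the spread of its 4 values.

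Enpp1 (ENSRNOG00000013994), the main source of extracellular pyrophosphate in mineralizing tissues, was at 10.56, 10.61, 9.51 and 9.72 TPM in Lv-Ctrl and at 35.86, 34.71, 37.34 and 38.28 TPM in Lv-Piezo1. The 2 groups were well separated, with little spread inside either. Its mean went from 10.1 ± 0.567 to 36.6 ± 1.58 TPM (SD, n = 4 each), a ratio of 3.62, with a log2 fold change of 1.76 (SE 0.052). Within single samples the TPM ratio of Enpp3 to Enpp1 was 0.0347 to 0.0422 in Lv-Ctrl and 0.495 to 0.516 in Lv-Piezo1. The mean ratio was 13.5 times higher in Lv-Piezo1. A ratio of genes within a sample does not change when all TPM of that sample are multiplied by the same factor.

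Entpd1 (ENSRNOG00000014574) encodes CD39, which takes ATP and ADP to AMP. It was at 0.12, 0.15, 0.17 and 0.24 TPM in Lv-Ctrl and at 0.95, 0.87, 1.02 and 1.15 TPM in Lv-Piezo1. No Lv-Ctrl sample reached the lowest Lv-Piezo1 sample, but both levels were low, with means of 0.17 ± 0.051 and 0.998 ± 0.119 TPM (SD, n = 4 each), a ratio of 5.87 that exceeds the one of Enpp1. Its log2 fold change was 0.77, and 2.04 with 0.1 added to TPM in place of 1. Nt5e (ENSRNOG00000011071) encodes CD73, the enzyme that makes adenosine from AMP. It was at 60.21, 61.98, 40.26 and 53.47 TPM in Lv-Ctrl and at 30.92, 28.68, 31.96 and 35.37 TPM in Lv-Piezo1. Every Lv-Piezo1 sample was below every Lv-Ctrl sample, although replicate 3 of Lv-Ctrl lay close to the Lv-Piezo1 range. The mean of Nt5e was 54.0 ± 9.85 in Lv-Ctrl and 31.7 ± 2.79 TPM in Lv-Piezo1 (SD, n = 4 each), 1.70 times lower, with a log2 fold change of -0.73 (SE 0.128). The TPM ratio of Nt5e to Entpd1 was 223 to 502 in Lv-Ctrl and 30.8 to 33.0 in Lv-Piezo1.

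**Figure D1:**
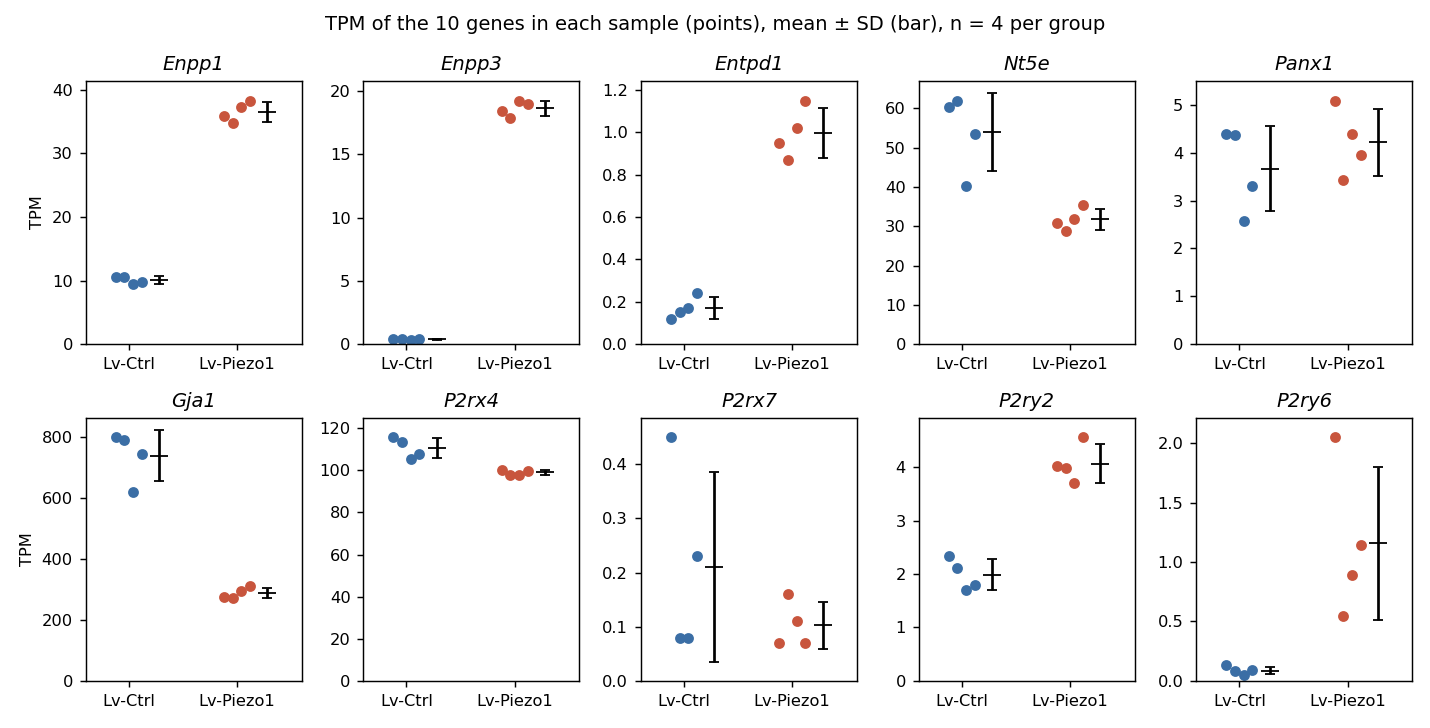
TPM of each of the 10 genes in each of the 8 samples; points are single samples, bars are the group mean and SD (n = 4), and each panel has its own linear axis from 0. Enpp3 goes from under 0.5 TPM in all Lv-Ctrl samples to 17.88 TPM or more in all Lv-Piezo1 samples, while the points of Panx1 and P2rx7 overlap between the groups.

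The sum of the 4 ectoenzymes differed less than its make-up. Their summed level was 50.3 to 73.2 TPM in Lv-Ctrl and 82.1 to 93.8 TPM in Lv-Piezo1. Nt5e made up 83.3% ± 2.16 of that sum in Lv-Ctrl and 36.1% ± 1.19 in Lv-Piezo1 (SD, n = 4 each). Enpp1 made up 15.9% ± 2.06 and 41.6% ± 0.588, and Enpp3 made up 0.598% ± 0.0605 and 21.2% ± 0.684. Entpd1 stayed a minor part in both groups, at 0.272% ± 0.101 and 1.13% ± 0.0711. CD73 transcripts thus led in Lv-Ctrl, and those of the 2 ENPP enzymes led in Lv-Piezo1. Transcript shares say nothing of enzyme activity, which was not measured here.

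**Figure D2:**
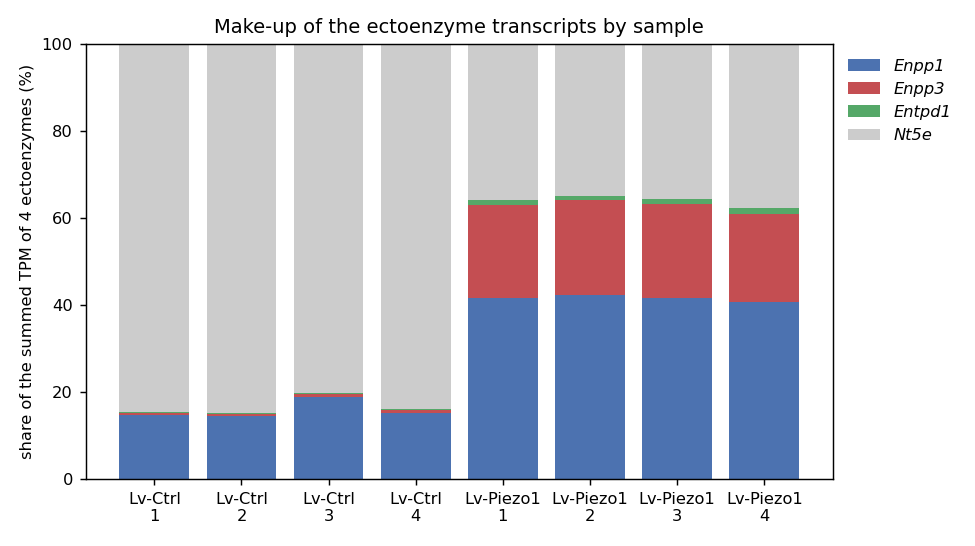
Share of the summed TPM of Enpp1, Enpp3, Entpd1 and Nt5e taken by each gene (y axis, percent) in each of the 8 samples (x axis). Nt5e fills most of the bar in all Lv-Ctrl samples, and Enpp1 and Enpp3 together fill more than Nt5e in all Lv-Piezo1 samples.

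Of the 2 release channels, Gja1 differed between the groups and Panx1 did not separate them. Gja1 (ENSRNOG00000000805) encodes connexin 43, which forms gap junctions and hemichannels. It was at 797.64, 790.03, 617.57 and 742.51 TPM in Lv-Ctrl and at 274.89, 272.13, 295.54 and 309.15 TPM in Lv-Piezo1. The groups were far apart, and the lowest Lv-Ctrl sample was still above the highest Lv-Piezo1 sample. The means were 736.9 ± 83.2 and 287.9 ± 17.6 TPM (SD, n = 4 each), 2.56 times lower, with a log2 fold change of -1.35 (SE 0.0819). Even so, Gja1 had the highest level of the 10 genes in both groups.

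Panx1 (ENSRNOG00000010060) encodes pannexin 1, the channel best known for ATP release. It was at 4.40, 4.38, 2.58 and 3.30 TPM in Lv-Ctrl and at 5.09, 3.43, 4.39 and 3.96 TPM in Lv-Piezo1. The ranges overlapped. The means were 3.67 ± 0.887 and 4.22 ± 0.702 TPM (SD, n = 4 each), and the log2 fold change of 0.17 (SE 0.154) took the other sign, -0.0445, after quantile normalization. The TPM ratio of Gja1 to Panx1 was 180 to 239 in Lv-Ctrl and 54.0 to 79.3 in Lv-Piezo1, 2.96 times lower on average. Replicate 3 of Lv-Ctrl was the lowest sample of that group for 8 of the 10 members (all but Entpd1 and P2rx7) and for 48.5% of all tested genes.

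Among the receptors, P2rx4 dominated and differed little on the deposited scale. P2rx4 (ENSRNOG00000001300), an ATP-gated channel permeable to calcium, was at 115.73, 113.50, 105.46 and 107.84 TPM in Lv-Ctrl and at 100.39, 98.00, 97.94 and 99.83 TPM in Lv-Piezo1. The groups did not overlap, but the difference was small. The means were 110.6 ± 4.79 and 99.0 ± 1.26 TPM (SD, n = 4 each), with a log2 fold change of -0.16 (SE 0.0362). The log2 fold change was -0.33 with median-ratio scaling and -0.21 with quantile normalization. P2rx7 (ENSRNOG00000001296), the low-affinity channel tied to inflammasome activation, was at 0.45, 0.08, 0.08 and 0.23 TPM in Lv-Ctrl and at 0.07, 0.16, 0.11 and 0.07 TPM in Lv-Piezo1. These values overlapped and were near 0 in both groups, which leaves no difference to be read at this level.

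Both P2Y receptors of the set were higher in Lv-Piezo1, from low levels. P2ry2 (ENSRNOG00000019283), a receptor for ATP and UTP, was at 2.33, 2.12, 1.71 and 1.79 TPM in Lv-Ctrl and at 4.02, 3.99, 3.70 and 4.56 TPM in Lv-Piezo1. The groups were apart, with means of 1.99 ± 0.289 and 4.07 ± 0.359 TPM (SD, n = 4 each), a ratio of 2.05 and a log2 fold change of 0.76 (SE 0.0979). P2ry6 (ENSRNOG00000019270), a receptor for UDP, was at 0.13, 0.08, 0.05 and 0.09 TPM in Lv-Ctrl and at 2.05, 0.55, 0.89 and 1.14 TPM in Lv-Piezo1. All 4 Lv-Piezo1 samples were above the Lv-Ctrl samples, but they were spread widely, with replicate 1 the highest. Its means were 0.0875 ± 0.033 and 1.16 ± 0.642 TPM (SD, n = 4 each). The log2 fold change of 0.94 lay between 0.76 and 1.09 when single samples were left out. P2rx4 made up 98.0% ± 0.313 of the summed TPM of the 4 receptors in Lv-Ctrl and 94.9% ± 0.611 in Lv-Piezo1 (SD, n = 4 each), while P2ry2 made up 1.75% ± 0.175 and 3.90% ± 0.304.

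Ordered by TPM, the Lv-Ctrl levels ran Gja1, P2rx4, Nt5e, Enpp1, Panx1, P2ry2, Enpp3, P2rx7, Entpd1 and P2ry6. Neighbours from Enpp3 down overlapped in their sample ranges, and all pairs above that were apart. In Lv-Piezo1 the order was Gja1, P2rx4, Enpp1, Nt5e, Enpp3, Panx1, P2ry2, P2ry6, Entpd1 and P2rx7. Here the ranges of Enpp1 and Nt5e overlapped, as did those of Panx1 and P2ry2 and those of P2ry6 and Entpd1. Enpp3 moved from the genes under 0.5 TPM to a place above Panx1 and P2ry2, which it did not overlap.

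Genes with a mean of at least 1 TPM over the 8 samples entered the limma fit. The call rule asked for an adjusted p under 0.05 and a change of 1 or more on the log2 scale in either direction. Of the 10 members 7 entered this fit, while Entpd1, P2rx7 and P2ry6 were below that limit. Enpp3 passed it through its Lv-Piezo1 level alone, and 6 members reached a mean of 1 TPM in Lv-Ctrl against 8 in Lv-Piezo1. Enpp1 and Enpp3 met the call rule as higher and Gja1 as lower, 3 of the 7 members in the fit, where 7.67% of all 13103 tested genes met it (4.91% higher and 2.76% lower). The adjusted p alone was met by 6 of 7 members and by 58.2% of all tested genes. The samples of the groups did not overlap in 8 of 10 members (5 higher, 3 lower), or 6 of the 7 in the fit, and in 54.2% of all tested genes. The members were picked on this contrast, so nothing is read from these counts. The median log2 fold change was 0.17 over the 7 members in the fit, 0.47 over all 10 and 0.14 over all tested genes.

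**Figure D3:**
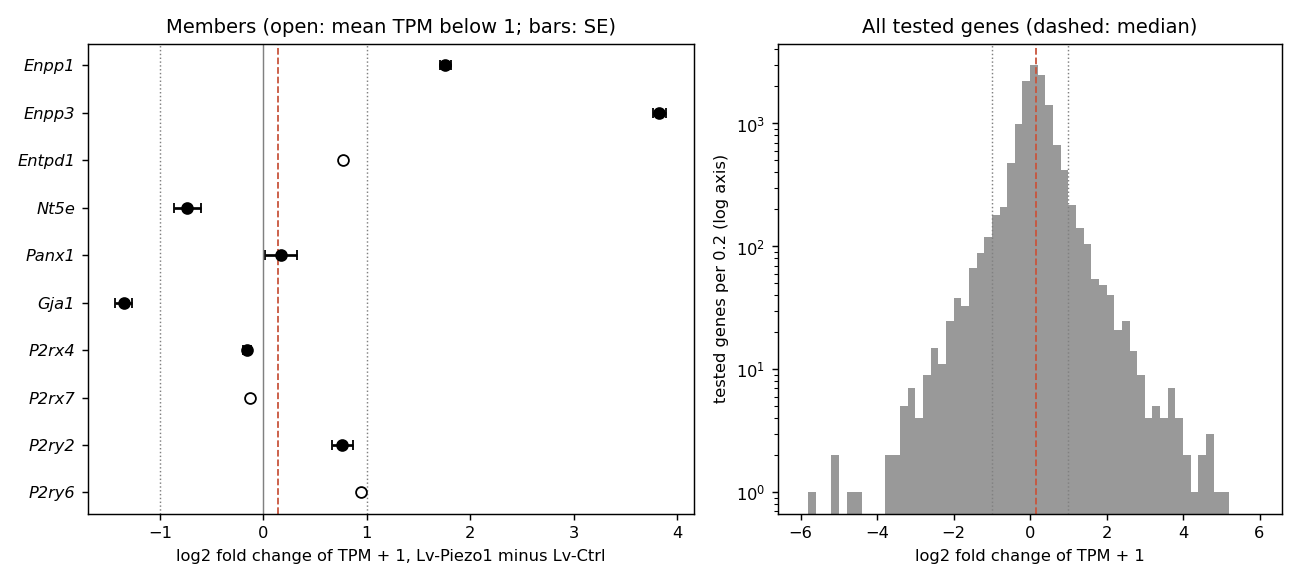
Left, log2 fold change of TPM + 1 (Lv-Piezo1 minus Lv-Ctrl) of the 10 genes, with SE bars for the 7 tested genes and open symbols for the 3 below a mean of 1 TPM; right, the same measure over all 13103 tested genes on a log count axis, with the median of 0.14 dashed. Enpp3 at 3.83 and Gja1 at -1.35 are the ends of the set.

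The wider pathway was read from a list of 62 further genes, of which 61 had a row and 32 were tested. On the deposited scale 6 of these rose and none fell past the call rule (18.8% of the 32, against 7.67% of all tested genes), while median-ratio scaling gave 4 higher and 3 lower. By adjusted p alone 22 of the 32 passed, 17 higher and 5 lower, and 10 did not (limma, Benjamini-Hochberg over all tested genes). Of all tested genes 58.2% passed. The list was written with earlier results of these data known, so nothing is read from these shares. The median log2 fold change of the 32 was 0.20. The other 29 were below the limit, 8 of them listed at 0 in all samples. Called genes came from 2 roles, with 4 of 12 tested genes of the release channels and 2 of 7 genes of adenosine handling, and from none of the tested receptors, ectoenzymes, intracellular nucleotidases or genes downstream of P2X7.

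The 4 called release genes were connexins, which stood on the opposite side to Gja1. Gja5 (connexin 40) was at 0.40, 0.37, 0.31 and 0.31 TPM in Lv-Ctrl and at 9.45, 9.96, 9.90 and 9.01 TPM in Lv-Piezo1, with a log2 fold change of 2.97 (SE 0.0762, limma adjusted p = 6.2e-09). Like Enpp3, it was under 0.5 TPM in every Lv-Ctrl sample and entered the fit through its Lv-Piezo1 level alone. Its call and adjusted p are thus given as a description. Gjb2 (connexin 26) rose from 3.30 ± 0.314 to 10.7 ± 0.297 TPM (limma adjusted p = 2.4e-07), and Gjc1 (connexin 45) rose from 4.95 ± 0.262 to 13.8 ± 0.446 TPM (limma adjusted p = 1e-07; SD, n = 4 each). Gja4 (connexin 37) rose from 1.28 ± 0.195 to 4.22 ± 0.738 TPM (log2 fold change 1.19, limma adjusted p = 3.3e-05), but with quantile normalization its log2 fold change of 0.97 was below the fold threshold. All 4 nevertheless stayed far below Gja1 in TPM. Ankh, a transporter that carries ATP and pyrophosphate out of the cell, was the most abundant gene of this role and was at 72.1 ± 8.68 and 38.0 ± 1.59 TPM, with a log2 fold change of -0.90 (limma adjusted p = 1.8e-05) that missed the fold threshold.

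For adenosine, both equilibrative transporters past the call rule were higher. Slc29a1, which carries adenosine across the membrane, was at 202.28, 193.48, 190.98 and 190.59 TPM in Lv-Ctrl and at 414.77, 406.01, 417.55 and 416.16 TPM in Lv-Piezo1 (log2 fold change 1.09, SE 0.0287, limma adjusted p = 7.3e-09). Slc29a2, its paralog, rose from 5.90 ± 0.441 to 12.9 ± 0.853 TPM (log2 fold change 1.01, limma adjusted p = 2.5e-06). Both lie close to the fold threshold, and after median-ratio scaling their log2 fold changes were 0.91 and 0.85, below it. Pnp, a purine nucleoside phosphorylase and the most abundant gene of this role, was at 1252 ± 23.0 and 689.6 ± 4.49 TPM (log2 fold change -0.86, limma adjusted p = 1.2e-08).

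In the remaining roles no gene met the call rule, and the most abundant tested gene of each is given. The ectoenzyme Enpp2 (autotaxin), whose main product is lysophosphatidic acid, was at 5.97 ± 0.798 and 2.55 ± 0.268 TPM (log2 fold change -0.97, limma adjusted p = 4.6e-05). Its difference was thus opposite in sign to those of Enpp1 and Enpp3. The adenosine receptor Adora2b was at 5.57 ± 0.229 and 9.95 ± 0.997 TPM (log2 fold change 0.73, limma adjusted p = 3.2e-05). Among P2X receptors P2rx5 was at 8.22 ± 0.279 and 11.2 ± 0.236 TPM (log2 fold change 0.41, limma adjusted p = 8e-05), and among P2Y receptors P2ry4 was at 11.3 ± 0.61 and 12.6 ± 0.601 TPM (log2 fold change 0.14, limma adjusted p = 0.061, and -0.0298 and -0.0456 with median-ratio scaling and quantile normalization). By level, P2ry4 was thus above the member P2ry2 in both groups. The intracellular nucleotidase Entpd4 was at 53.1 ± 3.47 and 70.1 ± 2.34 TPM (log2 fold change 0.40, limma adjusted p = 1.4e-04), and Gsdmd, which forms pores downstream of inflammasomes, was at 35.2 ± 1.32 and 32.4 ± 1.03 TPM (log2 fold change -0.11, limma adjusted p = 0.039). The limma adjusted p of Gsdmd was 0.058 with a replicate block, 0.054 without a trend and 0.013 to 0.097 with single samples left out. It was 1.3e-04 with median-ratio scaling (log2 fold change -0.29) and 6e-04 with quantile normalization (log2 fold change -0.23). With mitochondrially encoded genes left out it was 0.022 (log2 fold change -0.14).

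The counts of higher and lower genes depend on the scaling of the samples. With the deposited scale 64.1% of all called genes were higher, against 51.4% with median-ratio scaling and 48.8% with quantile normalization, and the median log2 fold change of all tested genes went from 0.14 to -0.02 and -0.0036. In the pathway list, the genes called with median-ratio scaling were Gja4, Gja5, Gjb2 and Gjc1 as higher and Ankh, Enpp2 and Pnp as lower, and with quantile normalization they were Gja5, Gjb2, Gjc1 and Slc29a1 as higher and Enpp2 as lower. Enpp1, Enpp3 and Gja1 met the call rule with the same sign under both.

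**Figure D4:**
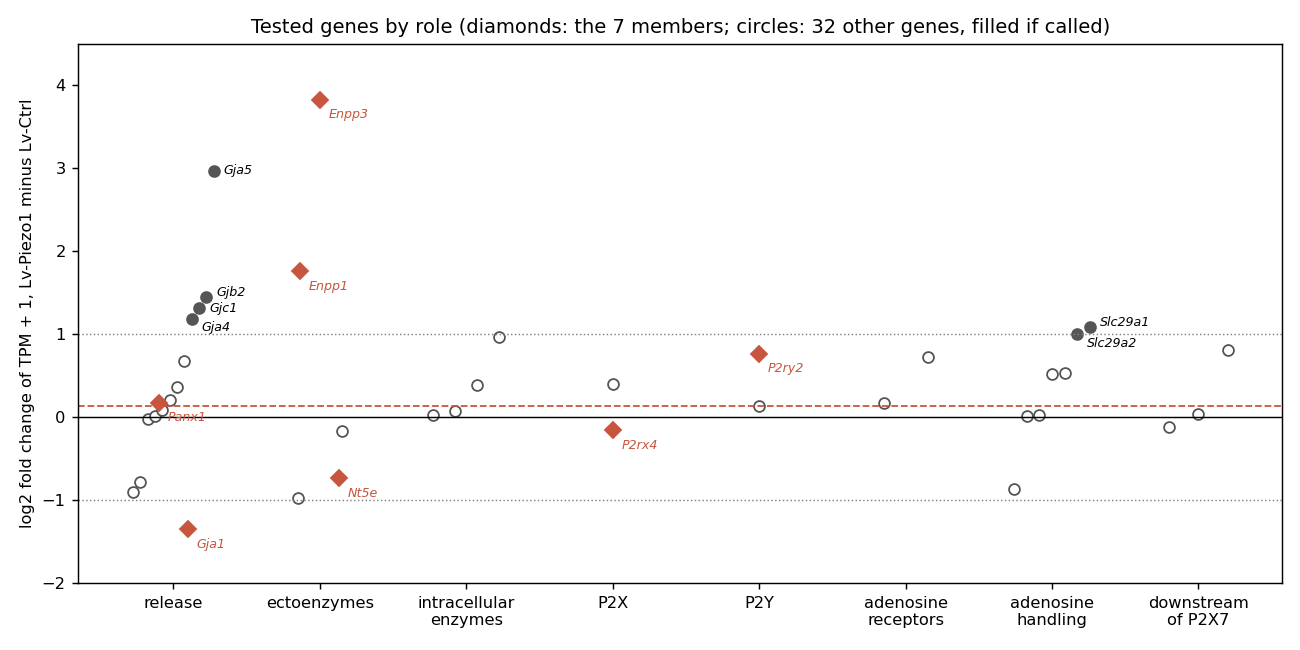
Log2 fold change of TPM + 1 (y axis, Lv-Piezo1 minus Lv-Ctrl) of the tested genes by role (x axis); diamonds are the 7 members in the fit, circles the 32 tested genes of the wider list, filled where called, with the median of all tested genes (0.14) dashed and the fold threshold of the call rule dotted. Enpp3 at 3.83 and Gja5 at 2.97 are the highest points, and the filled circles are in the release and adenosine handling roles.

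Enpp3 and Enpp1 are next to each other on chromosome 1 in the RefSeq gene order, and 2 further neighbours were also called. Next to Enpp1 is Ccn2, a matricellular growth factor, which rose from 1444 ± 87.2 to 4611 ± 95.2 TPM (log2 fold change 1.68, SE 0.0444, limma adjusted p = 7.3e-09). Next to Enpp3 is Med23, a Mediator subunit, at 14.6 ± 1.38 and 16.7 ± 0.716 TPM (log2 fold change 0.18, limma adjusted p = 0.045), and beyond it Arg1, arginase 1, fell from 33.8 ± 1.9 to 14.2 ± 0.519 TPM (log2 fold change -1.20, SE 0.0511, limma adjusted p = 1.3e-07). The stretch thus held genes called in both directions. Of the 10 genes in a window of 5 on each side, 8 had a row and 6 were tested, of which 1 was called higher and 1 lower. Over all tested genes 7.67% were called, 4.91% higher and 2.76% lower. The window and Arg1 were chosen after the nearest genes had been seen, so nothing is read from these counts.

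**Figure D5:**
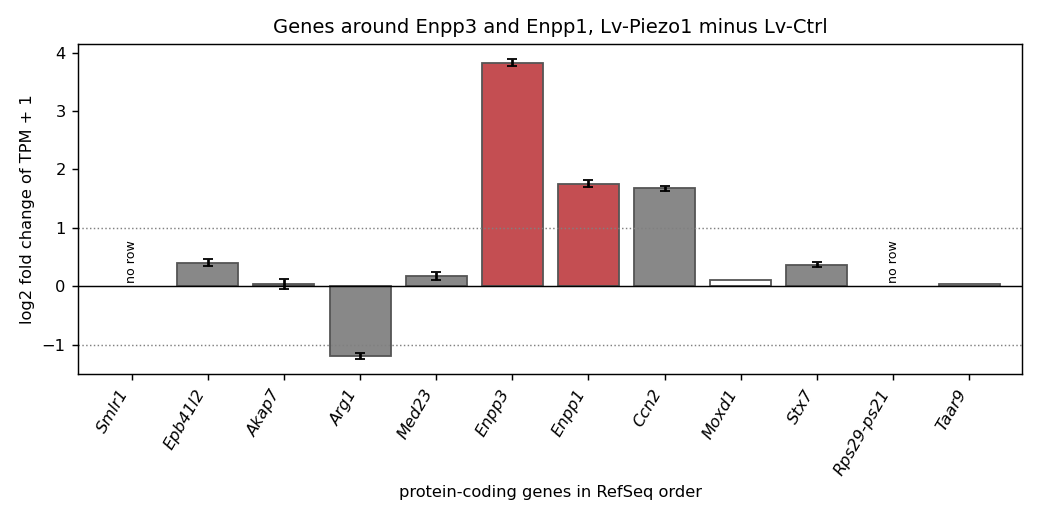
Log2 fold change of TPM + 1 (y axis, Lv-Piezo1 minus Lv-Ctrl) of Enpp3, Enpp1 and the 5 protein-coding genes on each side in RefSeq order (x axis, order and not distance). Enpp3, Enpp1 and Ccn2 stand above 1 and Arg1 below -1, with Med23 between Arg1 and Enpp3 at 0.18.

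Other members also lie side by side, P2rx4 with P2rx7 on chromosome 12 and P2ry6 with P2ry2 on chromosome 1. Beside the P2Y pair, Arhgef17 and Fchsd2 had log2 fold changes of 0.66 and 0.81 (limma adjusted p = 3.1e-05 and 2e-04), below the fold threshold. Beside the P2X pair, Camkk2 and Ift81 were at -0.20 and -0.04 (limma adjusted p = 0.013 and 0.43). Of the other members' neighbours, 1 was called, Izumo1r next to Panx1 on chromosome 8, which fell from a mean of 5.01 to 1.31 TPM (log2 fold change -1.38, limma adjusted p = 4.8e-05). The nearest genes of Entpd1 (Tctn3 and Cc2d2b), Nt5e (Snx14 and Syncrip) and Gja1 (Msl3l2 and Hsf2) were not called. With 7.67% of all tested genes called, nothing is read from 1 called neighbour.

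Enpp3 is known from mast cells and basophils, and their markers were at or near 0. Of 7 mast cell markers none reached a mean of 1 TPM, Cpa3, Fcer1a, Ms4a2, Tpsb2 and Tpsab1 were at 0 in all 8 samples, and the summed TPM of the list was 0.1 to 0.25 in Lv-Ctrl and 0.11 to 0.3 in Lv-Piezo1. Entpd1 and P2ry6 are known from macrophages, of whose 7 markers 2 reached a mean of 1 TPM. Their summed TPM was 21.5 to 22.9 in Lv-Ctrl and 36.2 to 41.7 in Lv-Piezo1. Most of that difference was Cd68, a lysosomal protein, at a mean of 0.955 and 12.3 TPM (limma adjusted p = 2.7e-05). Cd68 entered the fit through its Lv-Piezo1 level alone. Cd14 made up most of the sum in Lv-Ctrl, at a mean of 20.9 TPM against 25.8 TPM in Lv-Piezo1 (limma adjusted p = 0.0015). Adgre1 was at 0 in all samples and Ptprc was listed above 0 in 1 sample, at 0.01 TPM. Of 5 endothelial markers none reached 1 TPM in the mean, and of the 3 nucleus pulposus markers with a row Krt8 alone did, with Tbxt at 0 in all samples. The summed TPM of 4 cartilage markers was 32.9 to 39.4 in Lv-Ctrl and 52.6 to 56.2 in Lv-Piezo1, with Col2a1 under 1 TPM. Most of this sum was Acan, at means of 31.6 and 47.1 TPM. Comp was called higher, at 0.7375 and 2.86 TPM (limma adjusted p = 3.4e-05), and entered the fit through its Lv-Piezo1 level alone. The call of Comp and the adjusted p of Cd68 and Comp are thus given as a description. Sox9 was at 3.893 and 3.855 TPM. What part such cells have in the levels of Entpd1 and P2ry6 was not tested.

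Markers of contractile cells also differed between the groups, in both directions. The summed TPM of 7 smooth muscle and pericyte markers was 482.5 to 510.3 in Lv-Ctrl and 1695 to 1787 in Lv-Piezo1, with Acta2, Myh11 and Cnn1 called higher and Kcnj8 and Abcc9 called lower, and 6 of the 7 at a mean of at least 1 TPM. Most of the Lv-Ctrl sum was Kcnj8, at means of 326.4 TPM in Lv-Ctrl and 39.14 TPM in Lv-Piezo1. Most of the Lv-Piezo1 sum was Acta2, at means of 51.17 TPM in Lv-Ctrl and 1344 TPM in Lv-Piezo1. The sum therefore does not describe the list as a whole. What part contractile cells have in the levels of Enpp1, Enpp3 and Gja1 was not tested. In bulk RNA, fewer cells of a type and less RNA of a gene per cell cannot be told apart.

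Across the 8 samples, the genes whose log2(TPM + 1) followed Enpp3 most closely among 9060 genes with a symbol and a mean of at least 5 TPM were Tgfb3, Col4a3, Aqp1, Prss35 and Ccdc80, with Pearson's r from 0.99969 to 0.99993. The samples form 2 separate groups, so such an r mainly restates the difference between them. Their mean TPM in Lv-Ctrl and Lv-Piezo1 was 60.7 and 426.0 for Tgfb3, a growth factor, 0.335 and 34.5 for Col4a3, a basement membrane collagen, and 55.5 and 2028 for Aqp1, a water channel. For Prss35 it was 1.05 and 43.4 TPM, and for Ccdc80 311.9 and 1305 TPM. Col4a3 shared with Enpp3 a Lv-Ctrl level under 0.5 TPM.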

How the data were processed

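Gene expression was profiled by RNA-seq in stretched AFCs, with 4 samples per group (Lv-Ctrl and Lv-Piezo1, from the sample labels). Per the study's methods, the authors mapped filtered reads to the rat genome with HISAT2 and assembled transcripts with StringTie, and the table deposited by the authors holds TPM at 2 decimals for each sample. The submitters' processing notes name DESeq2 and the build mm10, a mouse build, whereas the rows carry rat Ensembl identifiers. The methods describe FPKM as the measure of expression. The versions of the aligner and assembler, the strand setting and the step that gave TPM are not given in the sources used here. TPM keeps no depth, so depth is unknown, counting error could not be computed, and precision rests on the 4 samples per group. The authors' group means were not used.

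From these values log2(TPM + 1) was computed, and the 13103 genes averaging 1 TPM or more across all samples were fitted with limma 3.58.1 in R 4.3.3 (empirical Bayes with a trend, Benjamini-Hochberg adjustment over the fitted genes). The call rule takes its limits, adjusted p below 0.05 and log2 fold change of 1, from the study's methods. The script was checked on simulated data. The members and all gene lists were chosen with earlier results of these data known, and the lists were written from general knowledge. Named are the 10 members, Piezo1, called genes of the pathway list, the most abundant tested gene of each of its roles, the 5 genes most correlated with Enpp3, the nearest protein-coding gene on each side of each member, and the cell type markers. Genes outside this rule are Arg1 and the wider window around Enpp3. Gene order and upstream sequence were taken from RefSeq tables for GRCr8.

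Alternatives were an added constant of 0.1, no filter, a filter at 5 TPM, median-ratio scaling, quantile normalization, leaving out the 13 mitochondrially encoded genes, moderation without a trend, a replicate block, no fold threshold, and leaving out each sample in turn.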

Additional observations from a re-analysis of the deposited data

How the results depend on the processing

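The members were chosen on this contrast, so calls kept across alternatives are a description and no support. The log2 fold changes of Enpp1, Enpp3 and Gja1, past the call rule in each fit, ran over 1.59 to 1.85, 3.63 to 5.28 and -1.53 to -1.31. Without a fold threshold, 6 members in place of 3, 22 pathway genes in place of 6 and 7626 genes in place of 1005 passed the adjusted p, and a filter at 5 TPM left 628 called genes among fewer tested. With 0.1 added to TPM, P2ry2 also met the rule (1.00), and 9 pathway genes were called. The median log2 fold change of the 10 members, 0.47, was 0.61 with 0.1 added and 0.33 with median-ratio scaling. Panx1 changed sign under quantile normalization (-0.0445), and P2ry4 did so with median-ratio scaling (-0.0298) and quantile normalization (-0.0456); the cause was not tested. With single samples left out, the members called stayed at 3, the pathway genes called ran from 5 to 7 and all genes called from 1006 to 1030. Slc29a2 fell short of the fold threshold without Lv-Ctrl replicate 4 (0.96) and without Lv-Piezo1 replicate 3 (0.97), and Enpp2 passed it without Lv-Ctrl replicate 3 (-1.05). Gsdmd kept its sign but not its adjusted p below 0.05 in most of these fits. The low levels of Entpd1, P2rx7 and P2ry6 depend most on the constant added, with log2 fold changes of up to 2.04 for Entpd1 and 2.63 for P2ry6.

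Replicate numbers are shared between the groups in the labels, but deviations of same-numbered samples did not go together (correlations of -0.030, -0.058, -0.051 and -0.012), so the numbers were not taken as pairs. A replicate block gave 3 called members, 6 called pathway genes and 1004 called genes in all.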
